A study of Mus musculus with 4 samples.

Results

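The genes described here are Atf4, which encodes the transcription factor ATF4, and 9 genes that act with or below it in the integrated stress response: Atf5, Cebpg, Cebpb, Ddit3, Trib3, Nupr1, Chac1, Sesn2 and Ddit4. The 10 genes were chosen by symbol, out of 52022 genes with a transcript in the files, and all 10 were among the 15643 genes with enough reads to be tested. They were measured by mRNA sequencing of brown adipose tissue from male mice that had been fed a diet of 60% fat for 12 weeks and could eat freely until sampling. The labels name 2 libraries from wild-type mice (WT 1 and WT 2) and 2 from mice that lack ATF4 in thermogenic adipocytes (KO 1 and KO 2). The sources used here do not give the Cre or promoter that drove the deletion, the exons of Atf4 it removed or the age of the mice. Nothing in the labels states that the 4 libraries are 4 animals, so a p-value here speaks only of the spread among libraries, which may be technical. In whole tissue, fewer cells of a type and less RNA per cell cannot be told apart, and cells other than adipocytes add their own Atf4 mRNA.

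In the integrated stress response, kinases that sense stress phosphorylate the translation factor eIF2, which slows protein synthesis in general while ribosomes pass the upstream reading frames of Atf4 and translate its main one. ATF4 then binds DNA as a dimer with a C/EBP protein, at sites that join a C/EBP element to an ATF/CRE element, and raises genes of amino acid supply and stress adaptation. Because much of this control is on translation, the Atf4 mRNA level does not give the amount of ATF4 protein, which was not measured. In brown adipose tissue, mitochondrial stress is known to switch the response on.

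To show what an ATF4 and C/EBP site looks like in these genes, the core TGATGNAA was searched on both strands, with no other motif searched, in RefSeq promoter windows of GRCm38.p6 that run from 250 bases before a gene's start to 50 after it. The core or its reverse complement was in 3.97% of 32851 such windows of all genes. All 10 genes had a window, 11 windows in all, and the 3 that held a match belonged to Chac1, Trib3 and Nupr1. The 30 bases around each match, on the gene's own strand with the match in capitals, are at chr2:119351038-119351067 (plus strand) for Chac1, chr2:152344028-152344057 (minus strand) for Trib3 and chr7:126625562-126625591 (minus strand) for Nupr1:
Chac1: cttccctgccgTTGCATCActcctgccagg
Trib3: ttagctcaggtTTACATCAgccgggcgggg
Nupr1: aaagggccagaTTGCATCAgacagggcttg
Relative to the RefSeq start, the match began at position -193 in Chac1, -110 in Nupr1 and 14 in Trib3. In the GENCODE annotation the Nupr1 match lay inside an exon of the Nupr1-201 model, and no GENCODE transcript covered the other two. The windows of Atf4, Atf5, Cebpg, Cebpb, Ddit3, Sesn2 and Ddit4 held no such letters, which says nothing about sites elsewhere.

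The libraries held 25985367 to 34813870 estimated counts, and the deposited values were summed over the transcripts of each gene. The 14 brown adipocyte markers, Ucp1 and Adipoq among them, were all measured, with summed levels of 13620 to 17350 CPM (counts scaled to the library size). Of the 14, 0 passed edgeR's test between genotypes, against 0.78% of all genes tested. At an unadjusted p under 0.05 there was 1, against 4.02%. The 14 skeletal muscle markers summed to 2.01 CPM in each WT library and to 3054 and 2850 CPM in KO 1 and KO 2. All 14 passed as higher in KO, against 0.78% of all genes in either direction. The myosin gene Myh4 was at 0 in both WT libraries. The part of this difference in the results that follow was not tested. The library names begin with S1 for WT 2 and KO 1 and with S2 for the library labelled WT 1 and KO 2, a prefix whose meaning the labels leave out. CPM did not overlap between the prefixes for 8329 of the 15643 genes tested, against 4113 (26.3%) between genotypes. The main test had genotype alone, without the prefix.

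The targeted gene was lower in each KO library than in each WT library, but 1 WT library lay close to KO. Atf4 (ENSMUSG00000042406, GRCm38 chr15:80255184-80257541, plus strand) stood at 29.2 CPM in the library labelled WT 1 and 107 CPM in WT 2, with 24.97 and 24.5 CPM for KO 1 and KO 2. WT 2 alone was high, 3.65 times the next library, and the library labelled WT 1 lay close to both KO libraries, whose mean was 84.8% of it. The mean was 67.9 ± 54.8 CPM in WT and 24.8 ± 0.303 CPM in KO (SD, n = 2 each). The fitted log2 fold change, KO over WT, was -1.46 (SE 0.571, Benjamini-Hochberg adjusted p = 0.9998 from edgeR's quasi-likelihood test), which does not pass the threshold of 0.05. It was -2.11 (edgeR adjusted p = 0.000624) without the library labelled WT 1 and -0.24 (adjusted p = 1) without WT 2, so the size of the change rests on which WT library is used. Each of these fits has a lone WT library, so its spread comes from the KO libraries alone, the WT library is assumed to vary as they do, and the p-value compares that library with KO. Every value below that leaves out a library likewise rests on a lone library of that genotype. Since the deleted exons are not known here, the level of Atf4 mRNA need not show the deletion.

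Of the 5 tested genes within 100000 bases of Atf4 on chromosome 15, 2 had the same division of libraries, a pattern looked for after the values of Atf4 had been seen. Rps19bp1, which encodes a protein that binds ribosomal protein S19 and lies on the opposite strand 3073 bases beyond Atf4 (chr15:80260615-80264315), stood at 1.82 CPM in the library labelled WT 1 and 9.28 in WT 2, with 1.80 and 1.71 for KO 1 and KO 2. Cacna1i, which encodes a T-type calcium channel and lies 29696 bases from Atf4 (chr15:80287238-80398279, plus strand), did the reverse, with 46.7 CPM in the library labelled WT 1 and 0.272 in WT 2, with 61.7 and 66.8 for KO 1 and KO 2. In estimated counts the Cacna1i values were 1467, 10, 1578 and 1948 in that order. On the CPM scale the other libraries were 172 to 245 times WT 2. Only 5 of the 15643 genes (0.032%) were in WT 2 at most 0.1 of their level in every other library while each of the others held 1 CPM or more. The same count was 3 for the library labelled WT 1, 13 for KO 1 and 2 for KO 2. The other 3, Tab1, Mgat3 and Mief1, were not set apart in WT 2: Mief1, the nearest at 1812 bases, stood at 32.7, 30.6, 30.1 and 34.0 CPM. With all 4 libraries neither Cacna1i nor Rps19bp1 passed the test (Cacna1i log2 fold change 1.45, SE 1.54; Rps19bp1 -1.66, SE 0.737; edgeR adjusted p = 0.9998 for each). Against WT 2 alone, the library whose values prompted the look, the log2 fold changes were 7.86 for Cacna1i and -2.40 for Rps19bp1, which describe that library and are given with no test.

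**Figure D1:**
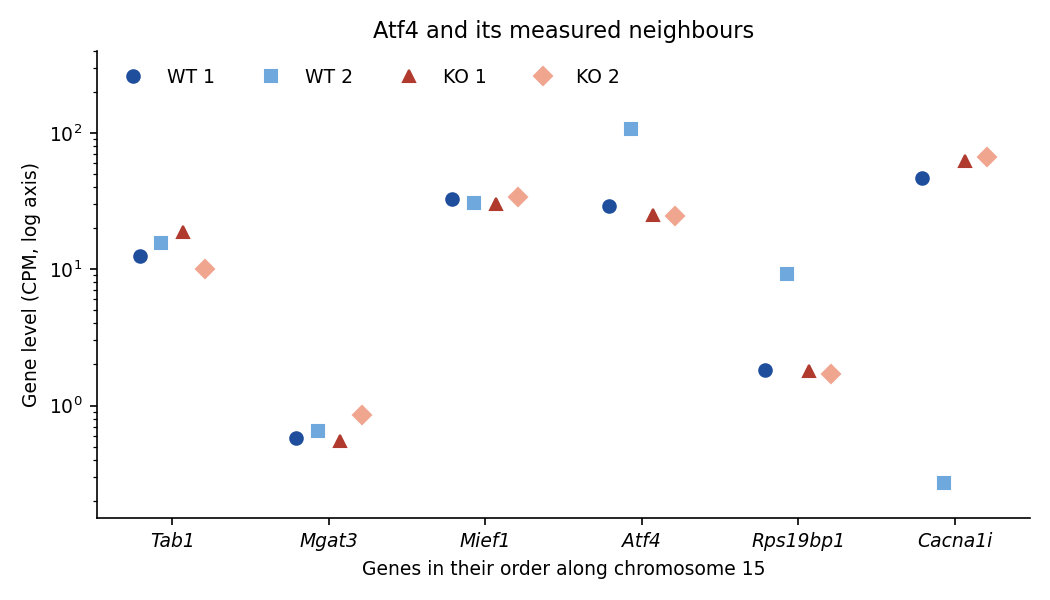
Atf4 and the tested genes within 100000 bases of it: level in CPM (log axis) in each of the 4 libraries. WT 2 is highest for Atf4 and Rps19bp1 and lowest for Cacna1i, and the library labelled WT 1 lies with both KO libraries at these 3 genes.

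At these genes the library labelled WT 1 therefore sits with the KO libraries, while the muscle markers divide the libraries as the labels do. The labels were kept as given. For some of the genes that moved when the library labelled WT 1 was left out, the value without it is given too.

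Most Atf4 reads were assigned to the full 3-exon model, Atf4-201 (1725 bases), at 17.5 TPM (an abundance scaled for transcript length and library size) in the library labelled WT 1 and 68.3 in WT 2, with 13.5 and 15.2 for KO 1 and KO 2. It held 94.3 to 95.7% of the gene's counts in the 4 libraries. The retained-intron model Atf4-203 followed it at a low level, with 0.755, 3.48, 0.580 and 0.462 TPM in the same order. The short model Atf4-202 was listed at 5.67 estimated counts in KO 2 and at 0 in the others. WT 2 was high in both expressed models, and the share of Atf4-201 differed by less than 2 percentage points between any of the libraries. Of the 1695 31-base words in Atf4-201, 0 occurred in the transcripts of another gene.

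Atf5 encodes a close relative of ATF4 that is also translated through upstream reading frames and is known as a regulator of the mitochondrial stress response. Summed over its models (ENSMUSG00000038539, chr7:44812256-44816658, minus strand) it stood at 64.1 CPM in the library labelled WT 1 and 145 in WT 2, with 65.5 and 62.1 for KO 1 and KO 2. As for Atf4, WT 2 alone was high, here 2.22 times the next library, and the KO mean was 99.5% of the library labelled WT 1. The log2 fold change was -0.71 (SE 0.383, edgeR adjusted p = 0.9998). It was -1.19 without the library labelled WT 1 (edgeR adjusted p = 0.227) and -0.01 without WT 2 (adjusted p = 1). WT 2 was at least 2-fold over every other library in 0.294% of genes tested, 46 genes. Atf5 and Atf4 were the 2 most abundant of these by mean CPM, a mean that includes WT 2. By the ratio of WT 2 to the next library, Rps19bp1 (5.11), Gm2446 (5.08) and Spp1 (4.88) stood above Atf4 (3.65) and Atf5 (2.22).

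The split of Atf5 reads between transcript models, unlike the total, divided the libraries as labelled. Atf5-201 and Atf5-202 begin 1000 bases apart at different first exons, share the coding sequence of 849 bases and have 1558 bases in common at the 3′ end. Atf5-201 stood at 27.8 TPM in the library labelled WT 1 and 63.3 in WT 2, with 18.3 and 20.7 for KO 1 and KO 2. Atf5-202 stood at 10.9, 31.3, 17.6 and 18.0 TPM in the same order, with the library labelled WT 1 lowest, WT 2 highest and both KO libraries between. Atf5-201 therefore held 72.8 and 68.1% of the Atf5 counts in the libraries labelled WT, against 52.2 and 54.8% for KO. The groups did not overlap, and 13.3 percentage points lay between them. Of 4816 genes with several transcripts and at least 500 counts in every library, the share of the leading transcript did not overlap between genotypes in 25.9%, and it lay at least 10 points apart in 1.52%. The share is an estimate, since 85 of the 31-base words of Atf5-201 (4.76%) and 177 of Atf5-202 (10.4%) occur in no other transcript and kallisto splits the shared reads, and no test was made. Another 55 words of Atf5-201 also occur, antisense, in Nup62 and Il4i1, and the strand setting of the counting is not given. Nup62 stood at 27.1, 19.6, 17.4 and 28.0 CPM in the same order, and Il4i1 at 0.701, 0.408, 0.664 and 0 CPM. These gene totals do not show where reads with the shared words were placed, and their part in the Atf5-201 share was not tested.

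The 250 bases before each of these start sites are shown because the models differ in where they begin. They are given on the minus strand, 5′ to 3′, from GRCm38.p6 (RefSeq), in lower case throughout since the core searched above is in neither. The upstream one, at chr7:44816659-44816908, has a GC content of 66.8% and lies in introns of Nup62 and Il4i1, which run on the other strand. The downstream one, at chr7:44815659-44815908, has a GC content of 56.0% and lies in an intron of Atf5-201:
Atf5-201: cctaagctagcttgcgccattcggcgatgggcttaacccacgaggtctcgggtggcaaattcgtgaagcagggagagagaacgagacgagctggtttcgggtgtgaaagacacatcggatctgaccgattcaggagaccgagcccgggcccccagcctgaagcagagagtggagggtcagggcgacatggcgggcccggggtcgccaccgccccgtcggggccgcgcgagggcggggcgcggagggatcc
Atf5-202: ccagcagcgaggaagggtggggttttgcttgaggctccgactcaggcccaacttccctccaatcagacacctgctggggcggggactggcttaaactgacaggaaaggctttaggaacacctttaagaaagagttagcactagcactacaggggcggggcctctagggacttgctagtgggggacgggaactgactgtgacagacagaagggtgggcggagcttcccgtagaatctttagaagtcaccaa

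**Figure D2:**
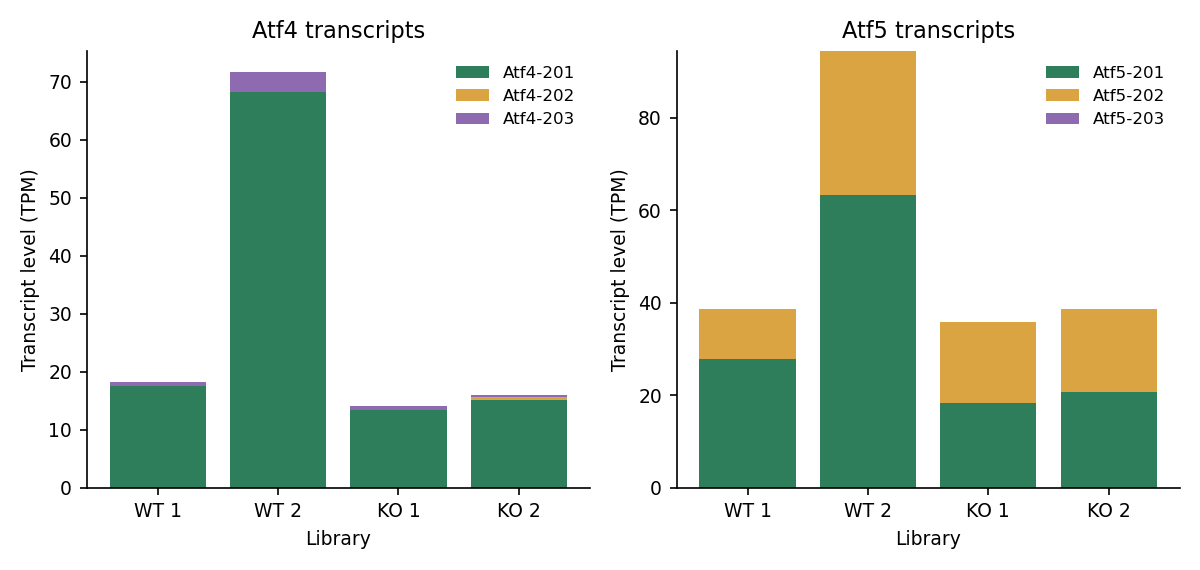
Transcript models of Atf4 (left) and Atf5 (right) in TPM, stacked in 1 bar for each of the 4 libraries. WT 2 has the highest bar for both genes, and Atf5-201 is the larger part of the Atf5 bar by more in the libraries labelled WT (27.8 of 38.7 TPM and 63.3 of 94.5 TPM) than in KO.

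The C/EBP-family genes described here, Cebpg, Cebpb and Ddit3, varied less than Atf4 itself, with the highest library at most 1.55 times the lowest. Cebpg encodes C/EBPgamma, with which ATF4 binds amino acid response sites. It stood at 83.2 CPM in the library labelled WT 1 and 85.1 in WT 2, with 65.8 and 83.3 for KO 1 and KO 2, so that KO 1 was the low library and the groups overlapped (log2 fold change -0.17, SE 0.191). Cebpb, which encodes a C/EBP factor of early adipocyte differentiation, stood at 50.3, 40.7, 56.5 and 36.4 CPM in the same order, and its log2 fold change was 0.03 (SE 0.262). KO 1 was highest and KO 2 lowest, with both WT libraries between them, so the spread within KO was larger than the difference between genotypes. Of the 31-base words of Cebpb, 19.4% also occur in other genes, among them Tmem189 on the other strand, and its fold change turned negative on the TPM scale (-0.11 with a pseudocount of 1). Ddit3 encodes CHOP, a C/EBP-family partner that promotes cell death under lasting stress. It stood at 28.9, 27.7, 24.2 and 30.1 CPM, with a log2 fold change of -0.06 (SE 0.181), and KO 1 and KO 2 were the lowest and highest.

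Nupr1 encodes a small stress-induced chromatin protein. It stood at 22.7 CPM in the library labelled WT 1 and 20.4 in WT 2, with 14.03 and 17.9 for KO 1 and KO 2. Each KO library was below each WT library, and the genotype difference was larger than the spread within either genotype, which held for no other of the 10 genes and for 16.7% of all genes tested. The log2 fold change was -0.43 (SE 0.190, edgeR adjusted p = 0.9998), so the difference did not pass the test. It was -0.27 to -0.62 when each library in turn was left out. Of its reads, 55.5 to 70.8% were assigned to the coding model Nupr1-201 and most others to Nupr1-205, a model marked for nonsense-mediated decay.

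Trib3 encodes a pseudokinase that is induced by ATF4 and CHOP and restrains them. It stood at 3.70 CPM in the library labelled WT 1 and 6.34 in WT 2, with 6.17 and 7.20 for KO 1 and KO 2. The library labelled WT 1 was the low one, and WT 2 lay among the KO libraries (log2 fold change 0.41, SE 0.312, and 0.077 without the library labelled WT 1). Chac1 encodes an enzyme that breaks down glutathione and is a sensitive target of ATF4. It was the least abundant of the 10, with 19, 63, 45 and 40 estimated counts, or 0.605, 1.72, 1.76 and 1.37 CPM, in the same order. Here too the library labelled WT 1 was low and the other 3 were alike. Its log2 fold change was 0.42 (SE 0.547) and was -0.13 without the library labelled WT 1.

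Sesn2 encodes sestrin 2 and Ddit4 encodes REDD1, both of which restrain the growth kinase complex mTORC1. Sesn2 stood at 39.8 CPM in the library labelled WT 1 and 20.9 in WT 2, with 24.4 and 24.8 for KO 1 and KO 2. The library labelled WT 1 was high and the other 3 were close together, and the log2 fold change of -0.30 (SE 0.313) became 0.23 without that library. Ddit4 stood at 22.4, 23.2, 44.8 and 18.2 CPM in the same order. KO 1 was high by itself, and the log2 fold change of 0.47 (SE 0.408) became -0.32 without KO 1. A different library thus stood out for Sesn2 and for Ddit4.

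**Figure D3:**
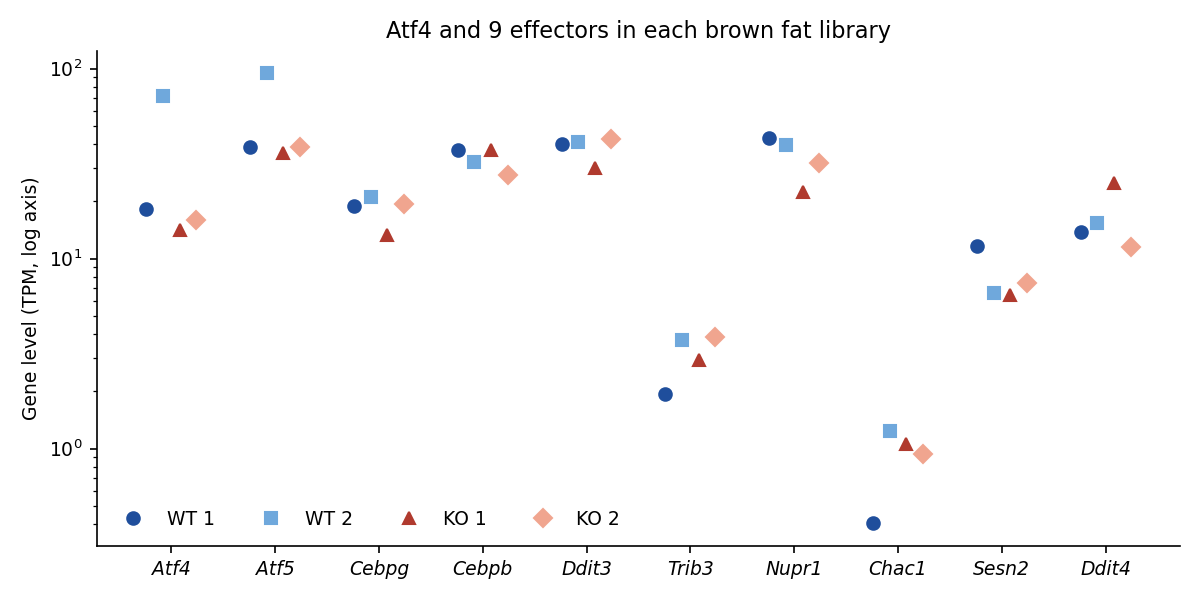
Level of each of the 10 genes in TPM (log axis), 1 marker for each of the 4 libraries. WT 2 is high for Atf4 and Atf5, the library labelled WT 1 is high for Sesn2 and low for Trib3 and Chac1, and KO 1 is high for Ddit4.

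Over all 10 genes, 0 passed edgeR's test, against 0.78% of all genes tested in either direction and 0.0128% as lower in KO. At an unadjusted p under 0.05 there was 1, Atf4, against 4.02% of all genes. DESeq2 and limma-voom also called 0 of the 10, against 1.39% and 0.818% of all genes. Without the library labelled WT 1, with WT 2 as the lone WT library, 1 of the 10 passed, Atf4, against 1.2% of all genes, and 0 did without WT 2, KO 1 or KO 2, against 1.31%, 0.742% and 0.499%. With the library name prefix as a term in the fit, 0 of the 10 passed, against 2.05% of all genes, and 3 (Atf4, Atf5 and Nupr1) had an unadjusted p under 0.05, against 8.88%. Groups without overlap were found for 2 of the 10, Atf4 and Nupr1, both lower in KO, against 26.3% of all genes, 13.1% lower and 13.2% higher in KO. The log2 fold changes of 6 of the 10 were negative, against 7767 of the 15643 genes tested, and their median was -0.12 against 0.00 over all of these.

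**Figure D4:**
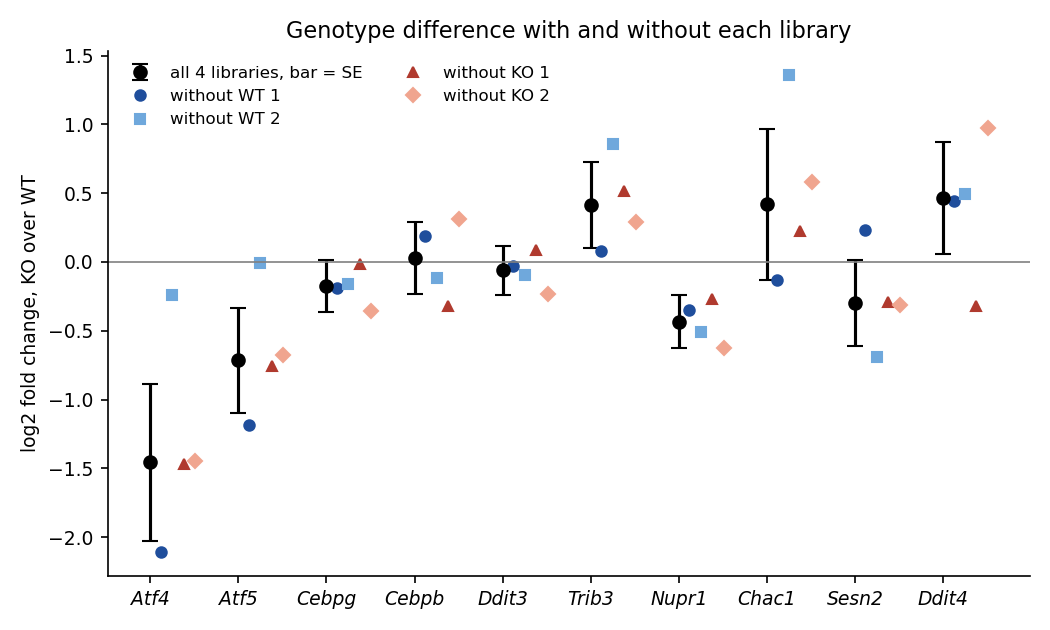
Fitted log2 fold change, KO over WT, of each of the 10 genes, with its standard error as a bar, and the same without each library in turn as points. Atf4 runs from -2.11 to -0.24, and the values of Cebpb, Ddit3, Chac1, Sesn2 and Ddit4 lie on both sides of 0.

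By TPM, which allows genes to be compared, Atf5 was the most abundant of the 10 (mean over the 4 libraries 52.0 TPM, range 36.0 to 94.5). Ddit3 (mean 38.4), Nupr1 (34.3), Cebpb (33.6) and Atf4 (14.1 to 71.7 TPM) followed with ranges that overlapped one another and that of Atf5, so their order is within the spread of the libraries. Cebpg (18.1 TPM) and Ddit4 (16.4 TPM) overlapped each other and Atf4, while Sesn2 (6.46 to 11.7 TPM) barely reached the lowest Ddit4 library (11.5 TPM). Trib3 (1.94 to 3.88 TPM) and Chac1 (0.405 to 1.24 TPM) were below these in every library.

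Set beside Atf4 over the 4 libraries, only Atf5 of the 9 other genes had a like profile. The measure was the root-mean-square difference between the centred log2 CPM of a gene and that of Atf4, over 9481 protein-coding genes with a mean of at least 5 CPM. It was 0.377 for Atf5, which placed it at rank 5 of these genes, behind Adam8 (0.284), Slc7a10 (0.342), Lgals3 (0.351) and Gpnmb (0.364). The next of the 10 were Nupr1 at rank 993 (0.814) and Cebpg at rank 1192 (0.825), and Ddit4 (1.08) and Sesn2 (1.09) stood farthest off. WT 2 was the highest library for Atf4, Atf5 and Cebpg, 3 of the 10, against 17.9% of all genes. For Cebpg that was by 1.02 times, less than the spread within KO. With 4 libraries, of which WT 2 alone sets the Atf4 profile, no correlation was computed.

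The 4 genes closer to Atf4 than Atf5 included macrophage genes. Gpnmb, a lysosomal glycoprotein of lipid-laden macrophages and 1 of the 12 macrophage markers, stood at 17.9 CPM in the library labelled WT 1 and 35.7 in WT 2, with 10.7 and 14.8 for KO 1 and KO 2. Lgals3, which encodes galectin-3, stood at 33.6, 67.1, 22.8 and 27.9 CPM. Slc7a10, an amino acid transporter used as a white adipocyte marker, stood at 7.26, 16.1, 6.96 and 4.76 CPM, and Adam8, a membrane protease, at 6.66, 20.6, 3.83 and 6.41 CPM. Macrophage markers did not all share this order: their summed level was 426 CPM in the library labelled WT 1 and 319 in WT 2, with 119 and 349 for KO 1 and KO 2. Lyz2 made up the largest part of that sum, at 216 CPM in the library labelled WT 1, while Cd68 (13.96, 24.7, 8.09 and 12.6 CPM), Itgam, Trem2 and Fcgr1 were highest in WT 2 as Gpnmb was. All 12 had reads in every library, and 0 passed the edgeR test, against 0.78% of all genes. In that test 3 had an unadjusted p under 0.05, all lower in KO, against 4.02% of all genes in either direction. The log2 fold changes of all 12 were negative, with a median of -0.70. The median difference in log2 CPM was -1.5 within S1 and -0.12 within S2. Groups did not overlap for 6 of the 12, all lower in KO, against 13.1% of all genes. The 8 white adipocyte markers, with Lep the most abundant, summed to 390, 290, 87.7 and 163 CPM in the same order, with Tcf21 at or near 0 throughout. Of these, Nnat, Retn and Slc7a10 were highest in WT 2. The 6 white adipocyte markers tested all had negative log2 fold changes, with a median of -1.04, and 0 passed the edgeR test. With the prefix as a term, 4 of the 6 passed as lower in KO, and 0 of the 12 macrophage markers passed, against 2.05% of all genes. The 7 fibroblast markers summed to 667 CPM in the library labelled WT 1 and 1007 in WT 2, with 421 and 626 for KO 1 and KO 2. WT 2 was thus the highest for that sum. Their median log2 fold change was -0.52, and groups did not overlap for 5 of the 7, all lower in KO. The 7 endothelial markers summed to 670, 976, 1250 and 739 CPM in the same order, with KO 1 highest. The part of any of these cells in the Atf4 level was not tested.

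**Figure D5:**
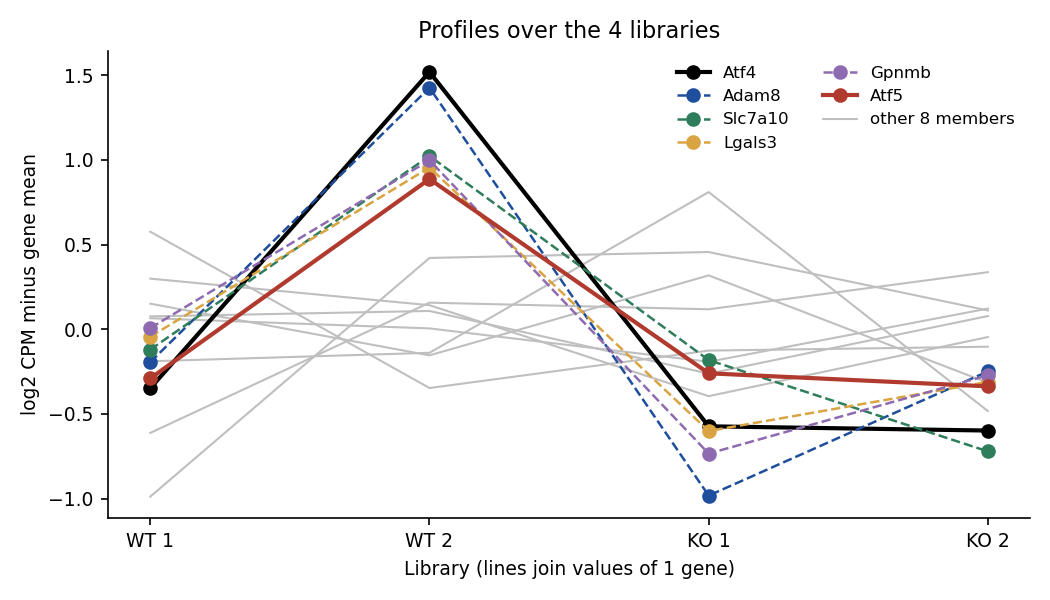
Log2 CPM less the gene's mean, in the 4 libraries: Atf4 and Atf5 (solid), the 4 other genes closest to Atf4 (dashed) and the other 8 of the 10 genes (grey). Atf5 is highest in WT 2 as Atf4 is, at 0.89 and 1.52 above the mean, and each grey line is at most 0.42 there.

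Around these 10 genes, 114 other genes of the stress response and of related families were listed, and 108 of them were tested. Only Ddit4l passed, as higher in KO, against 0.78% of all genes, and the median log2 fold change of the 108 was -0.12. DESeq2 called 3 of the 108 and limma-voom 1, and the count was 9 without WT 2, 2 without KO 1 and 0 without KO 2. With the prefix term 12 of the 108 passed, 11 of them lower in KO, against 2.05% of all genes. The 11 that fell in that fit were Atf3, Gdf15, Jun, Fos, Fosb, Errfi1, Egr1, Ier3, Nr4a1, Dusp1 and Zfp36, of which 8 were on the list of immediate early genes.

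Upstream of Atf4, 9 genes were read, for the eIF2 kinases, an eIF2 subunit (Eif2s1), the eIF2 phosphatase and the OMA1 and DELE1 relay from mitochondria. Of these 0 passed the edgeR test, against 0.78% of all genes. Eif2ak2 alone had an unadjusted p under 0.05, against 4.02% of all genes. Eif2ak2, the kinase that senses double-stranded RNA, stood at 13.5, 14.2, 10.2 and 9.46 CPM in the library labelled WT 1, WT 2, KO 1 and KO 2 (log2 fold change -0.49, SE 0.167). The phosphatase subunit genes Ppp1r15b (-0.43, SE 0.203) and Ppp1r15a (-0.52, SE 0.291) had the next smallest p, and were at -0.24 and -0.15 without the library labelled WT 1. The median of the list was -0.13.

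Other targets of ATF4 that were tested numbered 36, among them the amino acid synthesis gene Asns and the hormone genes Fgf21 and Gdf15. Of these 1 passed, Ddit4l, against 0.78% of all genes, and 3 had an unadjusted p under 0.05, against 4.02%. The median was -0.10, and 29 of the 36 were negative, against 7767 of the 15643 genes tested. Within the S1 prefix (KO 1 less WT 2) the median difference was -0.27 in log2 CPM, and within S2 (KO 2 less the library labelled WT 1) it was 0.07. Besides Ddit4l, the targets with an unadjusted p under 0.05 in the edgeR test were Atf3 and Gdf15, both lower in KO. Neither passed. Atf3 stood at 26.9 and 10.2 CPM in the libraries labelled WT and 4.14 and 8.29 in KO (log2 fold change -1.57, SE 0.537). Gdf15 stood at 8.03 and 6.18 CPM against 1.60 and 4.18 (-1.29, SE 0.462). Among the 36, groups did not overlap for 7 lower in KO and 2 higher, against 13.1% and 13.2% of all genes. Single targets differed in their division of the libraries, with examples chosen after their values were seen. Asns, which makes asparagine, stood at 41.4, 40.4, 32.0 and 38.9 CPM in the library labelled WT 1, WT 2, KO 1 and KO 2. Psat1, an enzyme of serine synthesis, stood at 5.16, 8.55, 3.63 and 5.72 CPM, with WT 2 high and the library labelled WT 1 between the KO libraries. No test of the targets against Atf4 was made.

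Ddit4l, the paralog of Ddit4, encodes REDD2, a restrainer of mTORC1 known in skeletal muscle. It stood at 0.159 CPM in the library labelled WT 1 and 0.327 in WT 2, with 5.55 and 4.46 for KO 1 and KO 2, from 5, 12, 142 and 130 estimated counts. Both KO libraries were far above both WT libraries (log2 fold change 4.32, SE 0.436, edgeR adjusted p = 0.0185). The adjusted p was 0.0558 without KO 2 and 0.000757 without the library labelled WT 1. It moved with the 14 skeletal muscle markers given above, and their part in it was not tested. Ddit4 itself did not move with them, since KO 2 was its lowest library.

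Of 14 tested paralogs of the 10 genes, Ddit4l was the only one to pass, against 0.78% of all genes. Trib1 and Trib2, the paralogs of Trib3, were picked out after their values were seen because they differed in opposite directions. Trib1 stood at 68.7, 52.4, 36.2 and 37.2 CPM (log2 fold change -0.72, SE 0.199, edgeR adjusted p = 0.635), and Trib2 at 14.7, 16.3, 22.6 and 24.5 CPM (0.60, SE 0.163, adjusted p = 0.602), in the order of the library labelled WT 1, WT 2, KO 1 and KO 2. For each, the groups did not overlap, and neither passed the test.

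Of 18 tested bZIP genes whose products can pair with ATF4 or with its partners, 0 passed the edgeR test, against 0.78% of all genes. An unadjusted p under 0.05 was found for 4, all lower in KO, against 4.02% of all genes in either direction. The AP-1 genes led them. Jun stood at 180 CPM in the library labelled WT 1 and 98.4 in WT 2, with 25.2 and 54.6 for KO 1 and KO 2 (log2 fold change -1.80, SE 0.457). Fos (51.0, 4.85, 0.977 and 2.50 CPM) and Fosb (35.1, 1.17, 0.274 and 0.446 CPM) were highest in the library labelled WT 1, by over 10 times the next one. Of the 12 immediate early genes, which respond fast to outside signals, 0 passed the edgeR test and 11 had an unadjusted p under 0.05, all lower in KO, against 4.02% of all genes in either direction. The median log2 fold change was -1.59, and the median difference in log2 CPM was -0.76 within S1 and -1.65 within S2, the prefix of the library labelled WT 1. Dusp1, a phosphatase of MAP kinases, stood at 194, 124, 56.5 and 64.9 CPM, and Ier3 at 23.4, 18.7, 12.0 and 11.1 CPM. Without the library labelled WT 1, the log2 fold change was -1.30 for Jun, -1.47 for Fos, -1.68 for Fosb, -1.03 for Dusp1 and -0.69 for Ier3. At these 5 genes the library labelled WT 1 was the farthest from the KO libraries, unlike at Atf4.

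For the other branches of the unfolded protein response, run by IRE1 and ATF6, 0 of 16 tested genes passed the edgeR test, against 0.78% of all genes. In that test 0 had an unadjusted p under 0.05, against 4.02%. Counts of 0 among 16 genes lie near these shares. The median log2 fold change was -0.03. Xbp1, the mRNA that IRE1 splices, stood at 46.6, 54.9, 45.3 and 40.4 CPM (-0.24, SE 0.182), Edem1 at 63.6, 57.3, 44.1 and 57.6 CPM (-0.25, SE 0.202), and Sdf2l1, an ER chaperone component, at 2.29, 2.61, 2.07 and 4.46 CPM (0.41, SE 0.421, and -0.25 without KO 2).

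Ddit4 also responds to glucocorticoids, so 11 other glucocorticoid targets were read beside it. Of these 0 passed the edgeR test, against 0.78% of all genes, and 1 had an unadjusted p under 0.05, against 4.02%. Per1, a clock gene, stood at 50.4 CPM in the library labelled WT 1 and 77.1 in WT 2, with 40.7 and 39.9 for KO 1 and KO 2 (log2 fold change -0.66, SE 0.243, and -0.32 without WT 2). Tsc22d3, which encodes GILZ, stood at 45.5, 45.1, 30.8 and 36.4 CPM (-0.43, SE 0.175). Zbtb16 stood at 11.4, 7.19, 4.49 and 125 CPM, so that KO 2 was high by itself, and its log2 fold change of 2.80 (SE 1.31) became -1.05 without KO 2. Ddit4 was high in KO 1 instead.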

How the data were processed

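The labels' protocols name TRIzol and RNeasy for the RNA and a stranded TruSeq mRNA kit for the libraries. Quantification used kallisto 0.45.0 and build mm10, per the submitters' processing notes, and no source used here gives the transcript set, the strand setting or trimming. The 4 files list 141450 transcripts each, with an estimated count and a TPM value that the authors deposited, per the file headers. kallisto splits reads shared by several transcripts, so genes with near copies or antisense partners are uncertain.

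Transcripts were matched to GENCODE vM21 genes by Ensembl identifier (138191, 97.7%), and the others, 0.992 to 1.04% of the counts, were left out. The deposited estimated counts were added up by gene, then rounded. The test was edgeR 4.0.16 (R 4.3.3), quasi-likelihood, on all 4 libraries, with TMM scaling, genotype alone, filterByExpr (minimum count 10, total 15) and Benjamini-Hochberg adjustment over 15643 genes, with a threshold of 0.05. It was also run on simulated counts, which had no prefix effect and no library set apart. That run therefore does not speak to data divided as these are. CPM uses TMM-scaled library sizes, and log2 CPM a prior count of 2. An exact permutation test of 2 against 2 cannot go below p = 0.333. Alternatives used DESeq2 1.42.0, limma 3.58.1 (voom, and log2 of TPM plus 1 or 0.1), other filters and scaling, the library name prefix or the replicate number as terms, and each library left out. Groups came from the genotype labels.

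The 10 genes and the lists were chosen with earlier results of these data known. Named besides the 10 are, per list, every gene that passed (at most 6) or else up to 3 with the smallest p, and the 5 genes most like Atf4. Other genes named were chosen after their values were seen. Sequences and promoter windows are RefSeq's (GRCm38.p6).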

Additional observations from a re-analysis of the deposited data

How the results depend on the processing

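Of 140 values of the 10 genes under 14 alternatives, 130 kept their direction and their side of the threshold. The number of genes passing was 122, and 457 with no filter on low counts, 320 with the prefix as a term (the same fit as the crossed replicate block, added after seeing the data), 218 with DESeq2, 58 with limma on log2(TPM + 1) and 78 to 205 with each library left out. Of the 10 genes, 0 passed, and 1 (Atf4, -1.46) with no filter. With a library left out the Atf4 value ran from -2.11 to -0.24. With no filter the SE was 0.241 for Atf4, 0.241 for Atf5 and 0.239 for Cebpg. In the main fit it was 0.571, 0.383 and 0.191. The fit with no filter therefore hardly follows the spread of each gene, which limits every count of genes passing in it. Of the 108 other listed genes, 1 passed, and 16 with no filter, 12 with the prefix or the crossed block, 3 with DESeq2, 0 with limma on log2(TPM + 1) and 0 to 9 with a library left out. Cebpb turned to -0.11 with limma on log2(TPM + 1) and on log2(TPM + 0.1). With a library left out the log2 fold change ran from -0.32 to 0.31 for Cebpb, -0.23 to 0.087 for Ddit3, -0.13 to 1.36 for Chac1, -0.69 to 0.23 for Sesn2 and -0.32 to 0.97 for Ddit4. It ran from -0.25 (without KO 2) to 0.86 for Sdf2l1 and from -1.05 (without KO 2) to 3.75 for Zbtb16. The cause of these changes was not tested. Between libraries with the same number, deviations from the group mean had r = -0.38 over genes. With 2 libraries per group, r for crossed numbers is the same value with its sign turned (0.38). The crossed libraries are also those that share a prefix, so r cannot show whether the numbers pair animals. With the replicate number as a block, 164 genes and 0 of the 10 passed, and Atf4 was at -1.18. Depth limits Chac1 and Trib3 most.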

Other observations

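Division by library name prefix was common, with no overlap in CPM for 8329 of the 15643 genes tested. Dbp, Tef and Nfil3 are given as examples. The clock output genes Dbp and Tef, bZIP factors themselves, separated by library name prefix: Dbp stood at 45.4 and 51.8 CPM in WT 2 and KO 1 and at 3.76 and 3.19 CPM in the library labelled WT 1 and KO 2, and Tef at 209 and 200.7 CPM against 88.1 and 90.4 CPM. Nfil3, a repressor of the same sites, was the reverse, at 21.3 and 16.4 CPM against 54.1 and 42.2 CPM.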
